A study of Mus musculus with 11 samples.

Results

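The regions described here were H3K27me3 peaks of the medial ganglionic eminence (MGE) that shared no base with any peak of the caudal (CGE) and lateral (LGE) ganglionic eminences or the cortex (CTX). They numbered 2026 of the 15384 MGE peaks on chromosomes 1 to 19 and X, and of 70216 peaks in all 4 lists, and are called MGE-only peaks. H3K27me3 CUT&Tag, in which an antibody against the modification directs a DNA-tagging transposase to chromatin, was performed on nuclei from microdissected brain regions of mouse embryos. The 11 samples were all wild-type C57BL/6J, untreated, with 2 samples of MGE and 3 each of CGE, LGE and CTX. For the last 3 regions a pair of samples is titled as replicate 2, with no word on whether it came from separate animals. No embryonic age is given per sample in the labels, the study places its CUT&Tag experiments at E12.5, and the extraction protocol covers tissue of E12.5 and E14.5. Each sample is a bulk of nuclei from dissected tissue with several cell types, and the protocol also speaks of combining equal numbers of nuclei from the regions, although every sample carries the label of 1 region. Samples were merged by region before the authors called peaks, so each region had 1 list, replicate error is unknown throughout and no test between regions was possible. The members were selected on the measured peak positions of the 4 lists, so the comparisons below describe the lists and test nothing.

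H3K27me3 is deposited by Polycomb repressive complex 2 and is found at genes that are kept silent, above all at developmental regulators with CpG-rich promoters. In the embryonic forebrain the ganglionic eminences generate GABAergic neurons, and the MGE, which is patterned by Sonic hedgehog and the transcription factor *Nkx2-1*, gives rise to many cortical interneurons. The cortex lies dorsal to them and generates glutamatergic neurons.

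The label of the MGE list was compared with genes of this lineage. The 2 kb upstream of *Nkx2-1* and of *Lhx6*, a transcription factor of MGE-derived interneurons, were covered over 100% by MGE peaks, that of *Lhx8*, a factor of cholinergic and GABAergic MGE neurons, likewise over 100%, and *Mbip*, the neighbour of *Nkx2-1*, had no peak. In CGE, LGE and CTX, the upstream 2 kb of *Nkx2-1* and *Lhx6* were also covered over 100%, and that of *Lhx8* over 34.6%, 42% and 100%. Over 2 kb either side of the start, *Lhx6* was covered over 69.2% in MGE and 100% in the other lists. For *Lhx8* this was 76.7% in MGE against 66% (CGE), 70.15% (LGE) and 100% (CTX). The MGE list thus showed no loss of the modification upstream of the genes that define the MGE, and its label rests on the dissection. None of these 4 genes held an MGE-only peak. Of the 4 lists, MGE was the shortest (16851 to 19196 peaks in the others), covered the fewest bases (24.5 Mb against 26.4 to 32.9 Mb) and had the lowest median −log10 q (3.38 against 3.81 to 4.61), where q is the authors' false discovery rate of a peak against local background.

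For 7 MGE-only peaks that the results below turn on, the 200 bases with the most CpG dinucleotides outside annotated untranslated sequence are printed, with CG in capitals, from the plus strand of GRCm38. CpG content was chosen because the modification is found above all at regulators with CpG-rich promoters. It does not by itself mark a promoter as bound by Polycomb. The windows are chr1:119044869-119045068 (intron of *Gli2*, 7 CG), chr16:44576351-44576550 (intergenic, upstream of *Boc*, 5 CG), chr1:59487641-59487840 (intergenic, beyond the end of *Fzd7*, 7 CG), chr5:53121581-53121780 (coding exon and adjoining intron of *Sel1l3*, 7 CG), chr17:23537907-23538106 (intergenic, in the peak with the highest −log10 q, 15 CG), chrX:51067639-51067838 (intergenic, in the widest peak, 5 CG) and chr7:97579904-97580103 (28 CG, coding part of the first exon of *Rsf1*, in the peak that also covers the promoter of *Aamdc*).
*Gli2* intron: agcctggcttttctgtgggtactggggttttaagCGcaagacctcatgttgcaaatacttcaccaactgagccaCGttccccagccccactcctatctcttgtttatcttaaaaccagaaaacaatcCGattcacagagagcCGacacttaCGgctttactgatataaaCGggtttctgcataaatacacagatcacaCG
upstream of *Boc*: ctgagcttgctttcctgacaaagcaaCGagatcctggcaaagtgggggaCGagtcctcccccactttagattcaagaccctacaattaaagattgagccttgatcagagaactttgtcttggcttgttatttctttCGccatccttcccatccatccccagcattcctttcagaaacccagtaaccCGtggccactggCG
downstream of *Fzd7*: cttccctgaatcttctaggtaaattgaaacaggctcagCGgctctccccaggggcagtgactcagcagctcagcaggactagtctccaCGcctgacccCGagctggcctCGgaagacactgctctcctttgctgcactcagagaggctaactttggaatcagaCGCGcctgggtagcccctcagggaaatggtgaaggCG
*Sel1l3* coding exon and intron: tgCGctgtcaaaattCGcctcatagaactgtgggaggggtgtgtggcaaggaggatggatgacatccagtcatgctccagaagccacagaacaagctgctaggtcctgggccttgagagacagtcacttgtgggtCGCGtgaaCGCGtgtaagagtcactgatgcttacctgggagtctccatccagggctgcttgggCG
strongest MGE-only peak: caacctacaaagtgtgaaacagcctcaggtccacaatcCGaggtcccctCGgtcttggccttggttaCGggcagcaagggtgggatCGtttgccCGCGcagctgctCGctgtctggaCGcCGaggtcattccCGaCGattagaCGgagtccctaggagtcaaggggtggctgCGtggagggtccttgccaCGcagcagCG
widest MGE-only peak: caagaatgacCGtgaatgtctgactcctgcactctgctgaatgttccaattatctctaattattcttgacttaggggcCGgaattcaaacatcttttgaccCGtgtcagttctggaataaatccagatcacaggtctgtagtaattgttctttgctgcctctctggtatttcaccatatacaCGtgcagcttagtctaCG
*Rsf1* first exon: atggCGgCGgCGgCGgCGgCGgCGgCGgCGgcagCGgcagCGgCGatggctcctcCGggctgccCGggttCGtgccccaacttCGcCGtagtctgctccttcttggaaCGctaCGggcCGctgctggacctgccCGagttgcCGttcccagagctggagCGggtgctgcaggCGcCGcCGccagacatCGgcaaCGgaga
The first 6 windows contained between 5 and 15 CG in 200 bases, and the window at the *Rsf1* start, the one that lies at a gene start, contained 28.

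The MGE-only peaks made up 13.2% of the MGE list. In the other lists, 16.6% of CGE peaks, 9.22% of LGE peaks and 22.6% of CTX peaks had no base in any other list. The MGE-only peaks covered 1.49 Mb, while the remaining 13358 MGE peaks covered 23.0 Mb. They came from every chromosome analysed, from 7.95% of the MGE peaks on chromosome 19 to 18.8% on chromosome 16, and 16.7% on X.

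MGE-only peaks were narrow and had low −log10 q values. Their median width was 505.5 bases (quartiles 360 and 909.75, range 288 to 6743), against 1422.5 bases for the other MGE peaks. The peaks found in 1 list elsewhere had medians of 573 (CGE), 407 (LGE) and 636.5 bases (CTX). The median −log10 q was 1.75 against 4.06 for the other MGE peaks, and 248 MGE-only peaks (12.2%) had a q-value under 0.001, compared with 60.7% of the others. Peaks found in 1 list elsewhere were as weak by this measure, with median −log10 q of 1.88 (CGE), 1.77 (LGE) and 1.95 (CTX). The fold enrichment of a peak over local background differed less, with medians of 2.85 in MGE-only and 3.03 in the other MGE peaks. For peaks found in 1 list elsewhere the median fold enrichment was 2.51 (CGE), 2.77 (LGE) and 2.56 (CTX). Divided by q-value into quintiles from the weakest to the strongest, the MGE list held 1027, 621, 306, 69 and 3 MGE-only peaks, or 33.4%, 20.2%, 9.94%, 2.24% and 0.0975% of each quintile. The weakest quintile therefore contained 50.7% of all MGE-only peaks. The number moved with the trimming of the lists, to 535 with a q-value under 0.001 in all 4 lists and to 3592 with the CGE, LGE and CTX lists cut from the weak end to the covered bases of MGE. Both counts include MGE peaks that overlapped another list as deposited. By the library depths listed in the paper, both MGE libraries were sequenced less deeply than the deepest library of CGE, LGE and CTX. Both were sequenced more deeply than the shallowest library of each of these regions. Because samples were merged before peak calling, the summed depth of a region also matters, and it was lowest for MGE. The part of sequencing depth in the MGE-only peaks was not tested.

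**Figure D1:**
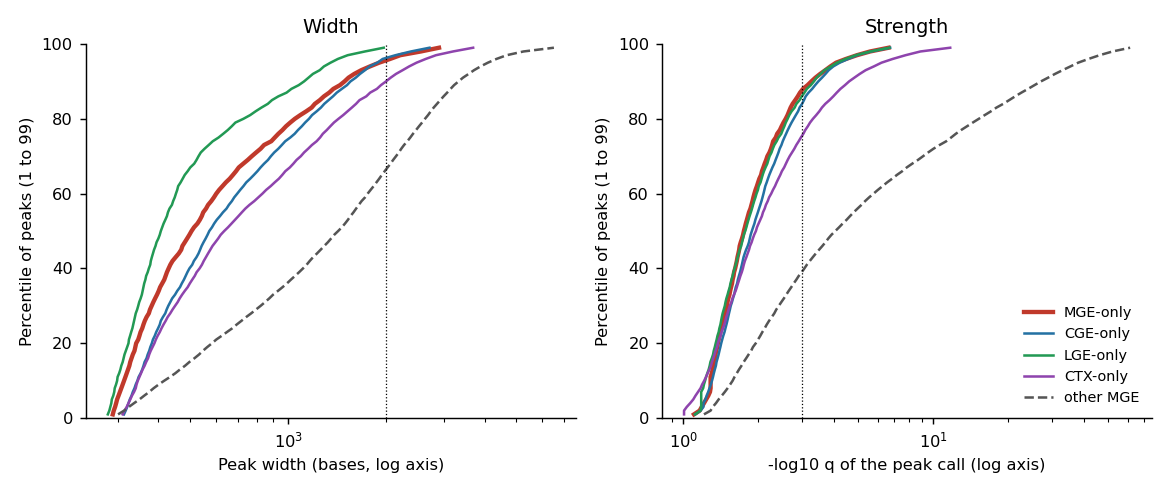
Percentiles of peak width (left, bases, log axis) and of −log10 q (right, log axis) for peaks found only in MGE, CGE, LGE or CTX and for the other MGE peaks (dashed). Dotted lines mark 2 kb and a q-value of 0.001; the MGE-only curve reached its median at 505.5 bases and −log10 q 1.75, to the left of the other MGE peaks at 1422.5 bases and 4.06.

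The position of the peaks relative to protein-coding genes was examined next. Each peak was placed at a promoter if it touched the 2 kb upstream of a gene, otherwise in an exon, an intron or intergenic sequence. Of the MGE-only peaks, 184 (9.08%) touched a promoter, 195 (9.62%) an exon, 732 (36.1%) lay in introns and 915 (45.2%) were intergenic, 143 of these overlapping a long noncoding RNA gene. In all, 29.7% of MGE peaks touched a promoter. Among the other MGE peaks the shares were 32.9% at promoters, 19.6% in exons, 18.1% in introns and 29.4% intergenic. The genome itself is made up of 1.62% promoter, 2.77% exon, 36.3% intron and 59.3% intergenic bases. Peaks found in 1 list elsewhere had 6.79% (CGE), 11.3% (LGE) and 10.1% (CTX) at promoters and between 41.0% (LGE) and 49.4% (CGE) intergenic. An annotated untranslated region was touched by 241 MGE-only peaks (11.9%) and by 42.3% of the other MGE peaks.

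**Figure D2:**
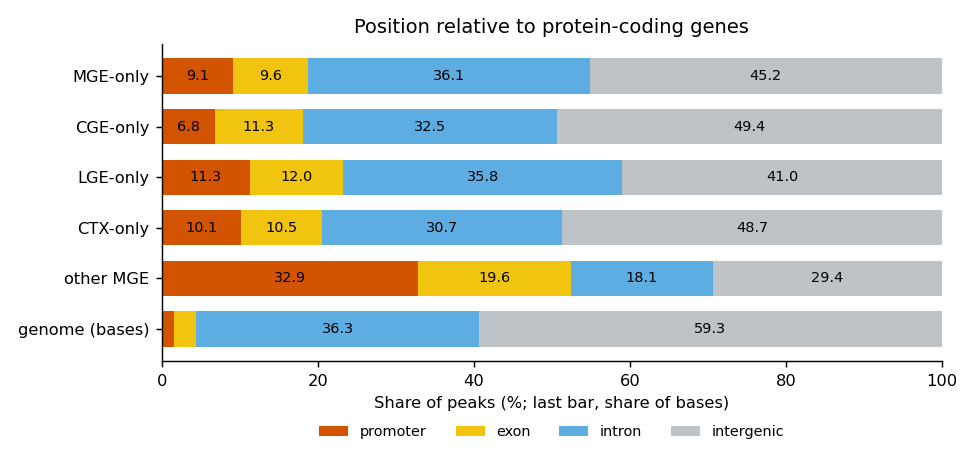
Share of peaks (%) at promoters (2 kb upstream), in exons, in introns and in intergenic sequence for the peaks found in 1 list and for the other MGE peaks, with the share of genome bases in the last bar. MGE-only peaks were at promoters in 9.08% and the other MGE peaks in 32.9%.

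The nearest annotated 5′ end of a protein-coding gene lay at a median of 45952.5 bases, compared with 6533 for the other MGE peaks and with 31509 (CGE), 33815.5 (LGE) and 57436.5 bases (CTX) for the peaks found in 1 list elsewhere. It was within 2 kb for 274 MGE-only peaks (13.5%), 2 to 10 kb away for 201 (9.92%), 10 to 50 kb for 576 (28.4%), 50 to 100 kb for 321 (15.8%) and at least 100 kb away for 654 (32.3%). Of all MGE-only peaks, 844 (41.7%) were upstream of that start. Only 125 (6.17%) lay over an annotated start itself, against 28.6% of the other MGE peaks.

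Sequence composition varied with position, and also differed from the other MGE peaks within each position. The median GC content was 48.4% in MGE-only peaks, 53.7% in the other MGE peaks and 41.8% in the genome, and the median number of CpG per kb was 11.4, 28.1 and 8.34 in the same order. Peaks found only in CGE, LGE and CTX had medians of 49.8%, 51.4% and 48.9% GC and of between 11.99 and 13.6 CpG per kb, closer to the MGE-only peaks than to the other MGE peaks. Annotated repeats made up a median of 12.4% of an MGE-only peak and 9.76% of the other MGE peaks, compared with 33.4% of the genome. Within the MGE-only peaks, those at promoters had a median GC content of 61.6% and 73.8 CpG per kb, and 125 of the 184 (67.9%) had the composition of a CpG island (GC of at least 50% and an observed to expected CpG ratio of at least 0.6). In intergenic MGE-only peaks the medians were 47.1% GC and 9.32 CpG per kb, and 8 of 915 had this composition. The other intergenic MGE peaks had a median of 17.9 CpG per kb. Medians were also lower in MGE-only peaks in introns (10.6 against 15.3) and exons (22.5 against 37.3). The promoter group was also the narrowest, with a median of 418 bases against 1940 for the other MGE peaks at promoters, whose median CpG density was 42.7 per kb. MGE-only peaks at promoters were thus short segments of dense CpG, unlike the long peaks that covered promoters in the other part of the list.

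The distance to the peaks of the other lists was then measured. The median gap from an MGE-only peak to the nearest peak of CGE, LGE or CTX was 18.6 kb, with quartiles of 5.22 and 62.0 kb and a smallest gap of 8 bases. Peaks found only in CGE, LGE and CTX had median gaps of 9684, 10827.5 and 17275 bases to the lists other than their own. A peak of another list was less than 1 kb away for 101 MGE-only peaks (4.99%) and less than 5 kb away for 497 (24.5%), whereas 584 (28.8%) had none within 50 kb. To the single lists the median gap was 27.5 kb (CGE), 36.7 kb (LGE) and 37.4 kb (CTX). The nearest peak belonged to CGE, the longest list, for 995 MGE-only peaks (49.1%), to CTX for 579 (28.6%) and to LGE for 385, and 67 were equally near to more than 1 list. Among the MGE peaks that did overlap another list, 924 overlapped CGE alone, 365 CTX alone and 315 LGE alone. The other peaks of the MGE list lay at a median of 36.4 kb, and for 458 MGE-only peaks (22.6%) the nearest peak of any list was another MGE-only peak.

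The median width changed little with the gap. It was 481 bases for gaps under 1 kb, 533 for 1 to 5 kb, 495 for 5 to 50 kb and 530 for 50 kb or more. Promoters were touched by 8.91%, 6.57%, 9.52% and 10.1% of these groups. Just inside the rule, 22 MGE-only peaks lay at most 100 bases from another list's peak (median width 496 bases, median −log10 q 1.54). Just outside it, 77 MGE peaks shared between 1 and 100 bases with another list (median width 370 bases, median −log10 q 1.65). A further view of such boundary cases came from 103 MGE-only peaks (5.08%) that lay in a gap of at most 10 kb between a pair of peaks of another list.

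**Figure D3:**
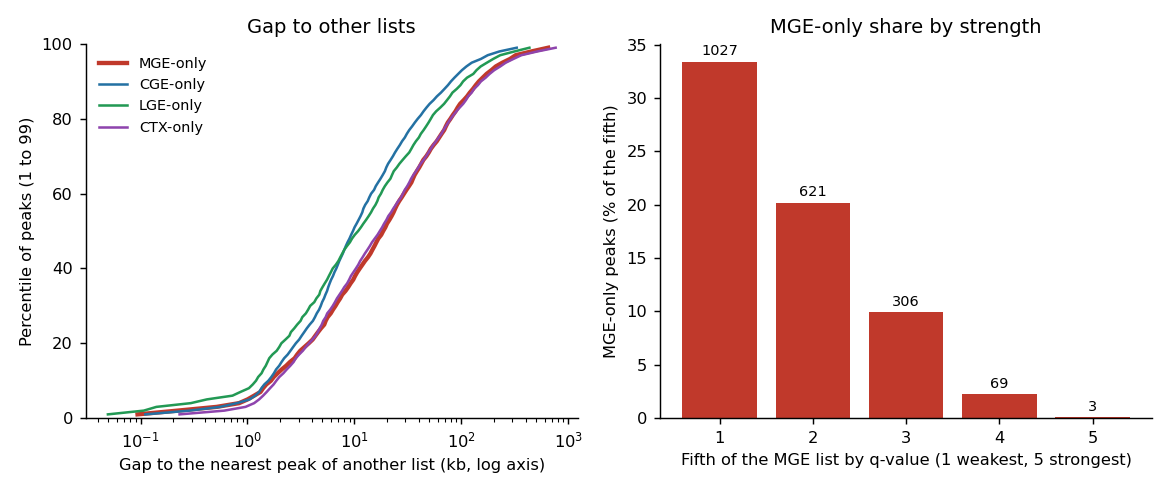
Left, percentiles of the gap (kb, log axis) from peaks found in 1 list to the nearest peak of any other list; the MGE-only median was 18.6 kb. Right, MGE-only peaks as a share (%) of each quintile of the MGE list by q-value, with their number above each bar, from 1027 in the weakest quintile to 3 in the strongest.

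Farthest from any other list were a peak of 536 bases on chromosome X (22069712 to 22070247), 1777 kb from the nearest peak of another list with *Gm28269* as the nearest gene, and a peak of 402 bases upstream of *Tyrp1*, a melanin synthesis enzyme, on chromosome 4 (80231277 to 80231678), 1211 kb away. A peak of 395 bases whose nearer edge lay 122 bases upstream of *Btg1*, an antiproliferative gene, on chromosome 10 (96616489 to 96616883, fold enrichment 3.30) was 843 kb from the peaks of the other lists. Peaks nearest to *Celf2*, an RNA-binding protein gene, and *Sel1l*, a component of endoplasmic reticulum-associated degradation, followed at 840.0 and 838 kb. Their −log10 q values ranged from 1.64 (*Tyrp1*) to 3.66 (*Celf2*), and all 5 were under 600 bases wide except the one nearest to *Sel1l*. Annotated repeats made up 97.2% of the *Gm28269* peak, 100% of those nearest to *Tyrp1* and *Celf2* and 61.2% of the *Sel1l* one. The *Btg1* peak contained 0%, and the median over MGE-only peaks was 12.4%. The mapping of reads to repeats was not tested.

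The strongest MGE-only peak by q-value was intergenic on chromosome 17 (23537040 to 23539003, 1964 bases), with a −log10 q of 31.1 and a fold enrichment of 4.31, 25.2 kb from the start of *Zfp213*, a zinc finger gene, and 7.58 kb from the nearest peak of another list. Next was a peak of 601 bases in an intron of *Pax6*, the transcription factor of cortical progenitors (chromosome 2, 105690041 to 105690641), with a −log10 q of 17.2. *Pax6* held 4 peaks in every list, and peaks covered 60.3% of the gene with its upstream 2 kb in MGE, against 36.6% (CGE), 30.2% (LGE) and 23.7% (CTX). The *Pax6* peak lay 1.71 kb beyond the nearest peak of another list. Peaks near *Rnf217* (−log10 q 13.0), *Fzd7* (12.7) and *Boc* (9.82) followed, and then a peak of 2269 bases 234 kb upstream of *Jarid2*, which encodes a cofactor of Polycomb repressive complex 2 (9.78).

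MGE-only peaks of 2 kb or more numbered 89 (4.39%), while 29.6% of all MGE peaks reached this width. They contained 15.7% of the bases of the MGE-only peaks. Of the 89, 48 were intergenic, 34 were in introns, 6 touched an exon and 1 touched a promoter, that of *Pdzrn3*, a ubiquitin ligase gene. A start was more than 50 kb away from 53 of them, their median GC content was 44.6%, the median gap to another list was 27957 bases and 31 had a q-value under 0.001. The count of 89 moved to 31 with a q-value under 0.001 in MGE and to 218 with lists of equal covered bases.

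The widest covered 6743 bases on chromosome X (51066954 to 51073696), 48.9 kb upstream of *Rap2c*, a Ras-related GTPase gene, with a fold enrichment of 1.94 and a −log10 q of 1.60. It was 132 kb from the nearest peak of another list. Peaks of 4522 bases in the annotated span of *Ccl1*, a chemokine gene, of 4004 bases near *Csnk1g3*, a casein kinase gene, of 3823 bases in *Vgll4*, a cofactor of TEAD transcription factors, and of 3775 bases upstream of *Mgat5*, a glycosyltransferase gene, came next. *Tenm2*, which encodes a synaptic adhesion protein, held a peak of 3766 bases in an intron (chromosome 11, 36276028 to 36279793) and a peak of 3371 bases touching an exon (36163700 to 36167070, −log10 q 5.27). The other peaks among the 15 widest measured between 3010 and 3445 bases and lay in or nearest to *Rps24*, *Epb41l4b*, *Ss18*, *Arpp21*, *Nox3*, *1110051M20Rik*, *Slc35b3* and *Mdm1*. The one near *Slc35b3* was 66 bases from a peak of another list.

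Genes with MGE-only peaks were counted over the gene body and the upstream 2 kb. Among 21755 protein-coding genes, 938 (4.31%) held at least 1 and 150 (0.689%) at least 2. For CGE-only, LGE-only and CTX-only peaks, 5.66%, 3.83% and 7.58% of genes held at least 1. The corresponding counts of genes with at least 2 were 244 (1.12%) for CGE-only, 95 (0.437%) for LGE-only and 309 (1.42%) for CTX-only peaks. These genes were long, with a median length of 218 kb for the 150 and 73.4 kb for the 938, compared with 17.4 kb over all genes, and the part of gene length in the counts was not tested. With a q-value under 0.001 in all 4 lists, 31 genes held at least 2. A peak in every other list was present in 111 of the 150, and 63 held no peak found only in CGE, LGE or CTX. Conversely, 337 of the 938 (35.9%) had no other peak in any list. Of these, 18 had at least 2 MGE-only peaks, led by *Hapln1*, which encodes a hyaluronan link protein of the extracellular matrix, with 3.

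*Sel1l3* and *Auts2* held the most MGE-only peaks, with 9 each. In *Sel1l3* (chromosome 5, 53107083 to 53213927, minus strand) no peak was found only in CGE, LGE or CTX. Peaks covered 14.9% of *Sel1l3* with its upstream 2 kb in MGE, but 2.04% (CGE), 1.06% (LGE) and 5.11% (CTX) elsewhere. The gene measured 106845 bases and carried 8.27 MGE-only peaks per 100 kb, against a median of 1.11 over the 150 genes, and 7 of the 9 had a q-value under 0.001. In *Auts2*, a regulator of neuronal development linked to Polycomb complex 1, there were also 8 CTX-only peaks and 1 CGE-only peak, and coverage was 1.84% in MGE, between 1.14% and 1.15% in the other eminences and 2.00% in CTX. The −log10 q of its 9 peaks ranged from 1.28 to 2.67, so none passed a q-value of 0.001. Both genes had the same count, and in *Sel1l3* but not in *Auts2* the coverage in MGE exceeded that of every other list.

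The annotated gene *Gm20388* followed with 8, but this model spans 4434882 bases and other genes, and held 31 CGE-only, 15 LGE-only and 33 CTX-only peaks. *Col25a1*, a brain-expressed membrane collagen gene, held 7 (1 CTX-only), *Adamtsl1*, which encodes a secreted matrix protein, 6 (1 CGE-only), and *Rad51b*, a homologous recombination gene, 6 (3 CGE-only). *Gli2*, *Ebf1*, *Mid1* and *Tle1* held 5 each. *Mid1*, a ubiquitin ligase gene, had 7 CGE-only and 4 CTX-only peaks, while *Tle1*, a Groucho-type corepressor gene, had none found only in CGE, LGE or CTX. All 7 peaks of *Col25a1* were intronic and had a −log10 q between 1.33 and 2.06.

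**Figure D4:**
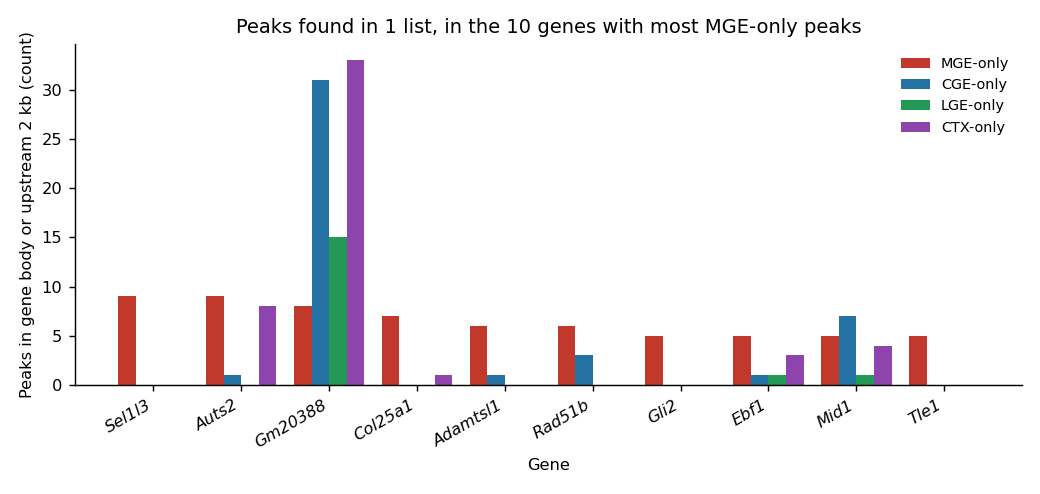
Number of peaks found only in MGE, CGE, LGE or CTX in the body and upstream 2 kb of the 10 genes with the most MGE-only peaks. *Sel1l3*, *Gli2* and *Tle1* had 9, 5 and 5 MGE-only peaks and none found only in CGE, LGE or CTX, whereas the very long *Gm20388* model had 33 CTX-only peaks.

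MGE-only peaks also lay close to each other. Within 20 kb of another were 484 (23.9%), and 138 (6.81%) formed 39 clusters of at least 3. Peaks found only in CGE formed 75 such clusters, those only in LGE 8 and those only in CTX 213. In 29 of the 39 clusters no peak of another list fell between the first and the last member, and in 19 a member touched a protein-coding gene or its upstream 2 kb.

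The largest cluster had 8 peaks over 52519 bases of *Sel1l3* (chromosome 5, 53111419 to 53163937), which contained 2 CTX peaks and none of CGE or LGE. These 8 were between 506 and 2658 bases wide, with −log10 q from 2.00 to 6.24. A further MGE-only peak of *Sel1l3* lay 22255 to 22600 bases into the gene. At its start, by contrast, every list had a peak, of 2317 bases in MGE and of 2218 (CGE), 1152 (LGE) and 2261 bases (CTX) elsewhere. The part of *Sel1l3* away from its start was where the MGE list differed.

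The next cluster had 6 peaks over 46299 bases around *Fzd7*, a Wnt receptor gene, and the neighbouring *Gm973* (chromosome 1, 59473470 to 59519768). A peak over the *Fzd7* start was present in all 4 lists, of 3161 bases in MGE and 2554 to 2982 bases in the others, with −log10 q of 41.9 in MGE and of 42.6 (CGE), 69.4 (LGE) and 3.89 (CTX) elsewhere. On either side of it, MGE-only peaks began at -8954, -4860, 4971, 12574 and 18540 bases from the start. The strongest of these, of 706 bases beginning at 4971, had a −log10 q of 12.7. The cluster after that, of 5 peaks over 41477 bases on X, included the widest MGE-only peak and contained no peak of another list.

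A further cluster, of 5 peaks, lay upstream of *Boc*, and *Boc* belongs to the pathway that held MGE-only peaks in the largest share of its genes among the lists examined. Of 22 Hedgehog pathway genes, 7 (31.8%) held at least 1, in a background of 4.31%. The same 22 genes held CGE-only peaks in 6, CTX-only peaks in 5 and LGE-only peaks in 1, and their median length was 56.5 kb against 17.4 kb over all genes. With a q-value under 0.001 in all 4 lists, 2 of the 22 held an MGE-only peak. Hedgehog ligands act through the receptor *Ptch1* and *Smo* on the Gli transcription factors.

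The ligand-side genes with MGE-only peaks were *Hhat*, the acyltransferase that modifies Hedgehog ligands, with 1, and *Scube2*, which promotes their release, with 3. At the cell surface were the co-receptors *Boc* with 3 and *Cdon* with 1, and *Hhip*, which binds the ligands and inhibits them, with 1. Of the transcription factors, *Gli2*, a main activator of the pathway, had 5 and *Gli3*, its main repressor, had 2. No promoter in the pathway was touched, and all 16 peaks overlapped gene bodies. *Hhip*, with 3 CGE-only and 3 CTX-only peaks, was covered less in MGE (2.55%) than in CGE (6.45%), LGE (5.37%) and CTX (8.12%), and *Gli3* was covered over 4.02% in MGE and 4.07% in CGE. *Hhat* was covered least in MGE (0.133%, against 0.142% to 0.729% elsewhere), whereas *Gli2*, *Boc*, *Cdon* and *Scube2* were covered most in MGE.

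*Gli2* (chromosome 1, 118834132 to 119053619, minus strand) had 11.1% of its length with the upstream 2 kb under MGE peaks, 3.51% under CGE peaks, 1.196% under LGE peaks and 0% under CTX peaks. Its 5 MGE-only peaks fell into a group near the start, of 2842, 503 and 668 bases beginning 7646, 12074 and 17336 bases into the gene, and a distal pair of 1510 and 375 bases beginning 129127 and 162950 bases into it. Their −log10 q values were 6.89, 3.69, 1.30, 4.91 and 2.17 in that order. The peak over the start itself was no MGE-only peak. It measured 6039 bases in MGE (119049877 to 119055915) and overlapped peaks of 3371 bases in CGE and 2649 bases in LGE, which ended short of the upstream 2 kb. *Gli2* was therefore marked more widely in MGE both by MGE-only peaks and by longer peaks at places shared with CGE and LGE, and CTX had no peak in the gene.

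*Boc* (chromosome 16, 44485049 to 44558897, minus strand) had 9.74% under MGE peaks by the same measure, 2.03% under CGE peaks, 2.24% under LGE peaks and 1.31% under CTX peaks. Within the gene, MGE-only peaks of 2132, 407 and 378 bases began 29099, 62109 and 70782 bases from the start, with −log10 q of 2.86, 1.77 and 1.25. The first of these was 586 bases from a CTX peak. Upstream, the cluster spanned 57785 bases (44574263 to 44632047) with peaks of 2494, 965, 1010, 1024 and 341 bases and −log10 q of 9.82, 7.16, 5.00, 1.63 and 2.03. Between these peaks MGE had 2 peaks at places where CGE also had one, and LGE and CTX had none. At the start, the MGE peak measured 3904 bases and those of CGE and LGE 1543 and 1202. The strongest MGE-only peaks of *Boc* thus lay upstream of the gene and not within it.

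**Figure D5:**
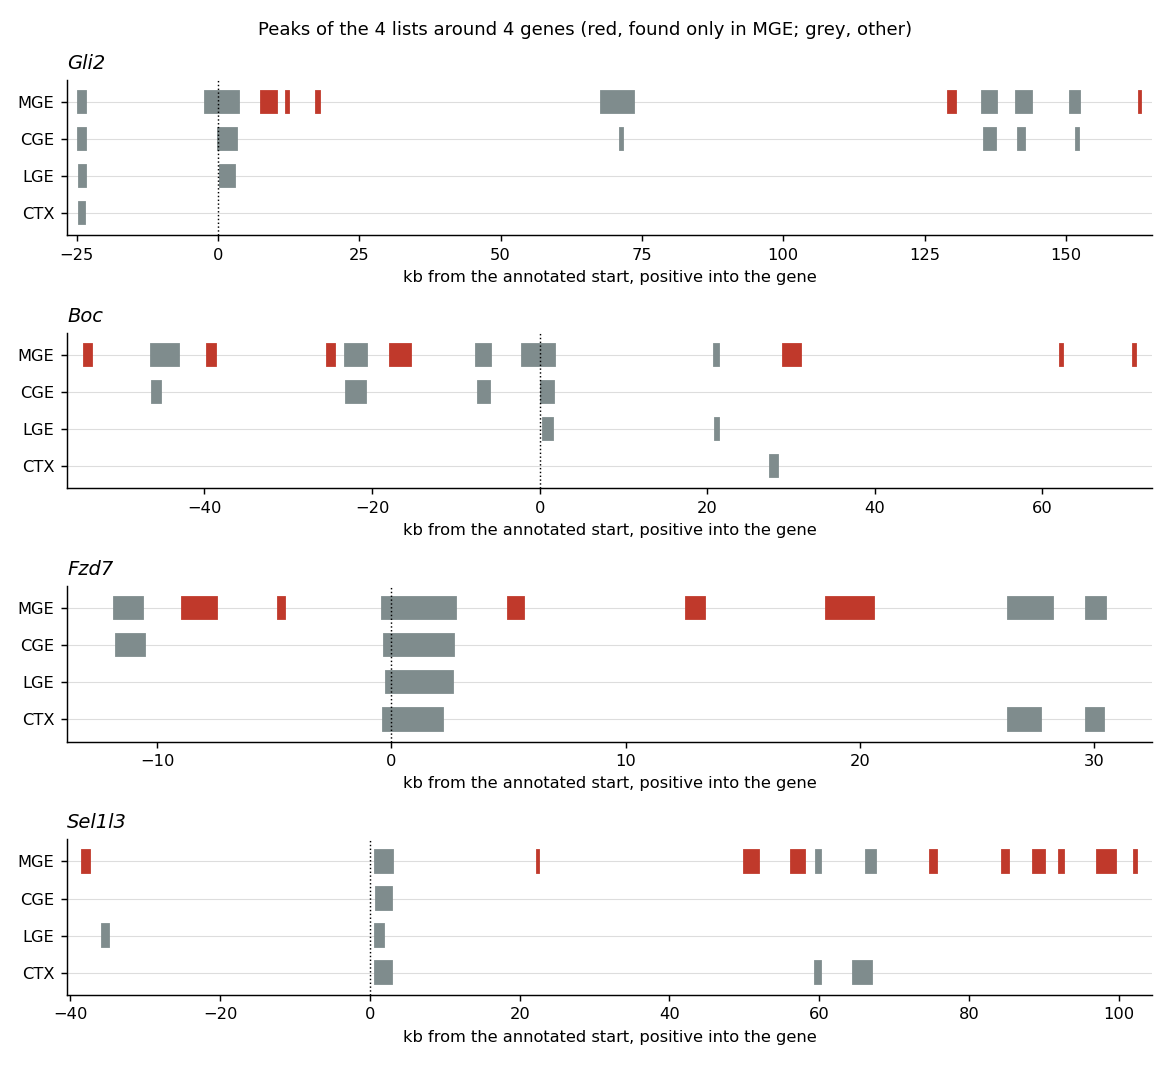
Peaks of the 4 lists around *Gli2*, *Boc*, *Fzd7* and *Sel1l3* by distance from the annotated start (kb, positive into the gene), with MGE-only peaks in red and all other peaks in grey. In *Sel1l3* most MGE-only peaks lie in the distal part of the gene, where CTX also has 2 peaks, while a peak near the start is present in all 4 lists.

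MGE-only peaks were then counted in genes of the forebrain lineages, beside the 4.31% of all genes that held one. Of 21 genes of the MGE lineage, 2 did (9.52%). These were *Zeb2*, a transcription factor of migrating interneurons, with an intronic peak of 2165 bases, and *Maf*, a factor of MGE-derived interneurons. The *Maf* peak, of 326 bases at the promoter, was 1.30 kb from another list. *Maf* was nevertheless covered least in MGE, at 12.9% against 14.3% (CGE), 15.9% (LGE) and 13.5% (CTX). For *Zeb2* the coverage was 4.18% in MGE, below 4.41% (CGE) and above 0.263% (LGE) and 1.88% (CTX). Of 23 genes of the CGE and LGE lineages, 5 held an MGE-only peak (21.7%). *Ebf1*, a transcription factor of striatal neurons, had 5, and *Meis2*, a homeodomain factor of the LGE, had 2. *Prox1*, a factor of CGE-derived interneurons, *Etv5* and *Foxp1* had 1 each. CGE-only peaks occurred in 6 of the same 23, LGE-only peaks in 4 and CTX-only peaks in 5. *Ebf1* had a coverage of 10.8% in MGE, against 9.33% (CGE), 5.49% (LGE) and 9.17% (CTX). Of 28 genes of the pallial lineage, 3 did (10.7%), *Pax6*, the glutamate transporter gene *Slc17a6* and *Nfia*, with 1 each, and none of the 10 pan-GE GABAergic genes did. CGE-only, LGE-only and CTX-only peaks occurred in 4, 2 and 3 of the MGE lineage genes and in 5, 3 and 2 of the pallial genes.

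Developmental regulators and signalling genes were counted in the same way. All 39 Hox genes, which are short (median length 3.49 kb), had MGE peaks and none had an MGE-only peak. Of 174 other developmental transcription factor genes, 151 had an MGE peak and 10 (5.75%) an MGE-only peak, near the background of 4.31%. Among Wnt pathway genes there were 4 of 54 (7.41%), in BMP and TGF-beta signalling 5 of 57 (8.77%), in FGF signalling 2 of 32 (6.25%) and in Notch signalling 1 of 19, *Hes6*. In the same order of pathways, CGE-only peaks occurred in 9, 8, 5 and 1 genes. LGE-only peaks occurred in 5, 3, 2 and 2 and CTX-only peaks in 6, 2, 2 and 0. *Tgfbr2*, a TGF-beta receptor gene, held the longest of the peaks in BMP and TGF-beta genes with 2762 bases, and was covered over 5.37% in MGE and 2.22% to 2.92% elsewhere. The annotated *Fgfr2* model spans 2960900 bases and other genes, so its 4 peaks are not assigned to the receptor. Among genes of the Polycomb complexes, *Phc2*, a subunit of complex 1, and *Eed*, a subunit of complex 2, had 1 each of 30, and the *Eed* peak of 301 bases at the promoter was 321 kb from the peaks of the other lists. CGE-only, LGE-only and CTX-only peaks occurred in 3, 1 and 4 of the 30.

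At promoters, 204 of the 21755 (0.938%) were touched by an MGE-only peak, over a median of 13.3% of the 2 kb. The window of 2 kb either side of the start was free of other lists' peaks for 179 of the 204. At least 25% of the promoter was covered for 23, and at least 50% for 1 (0.0046%), *Aamdc*, at 58.0%. The *Aamdc* peak (chromosome 7, 97579546 to 97580705, 1160 bases) also covered the start of the divergent gene *Rsf1*, a chromatin remodelling factor gene, and was 125 kb from any other list, with a −log10 q of 1.60. *Neil2*, a DNA glycosylase gene, followed at 48.6%, with no base of CGE, LGE or CTX within 2 kb of the start.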

How the data were processed

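The authors aligned reads to GRCm38 (mm10) with Bowtie2, removed blacklisted regions and Picard duplicates, merged the samples of a region with SAMtools and called broad peaks with MACS. Version and control of MACS are not given in the sources used here. The deposited lists hold, per peak, a q-value on a −log10 scale and a fold enrichment, which is a ratio to the background around the peak. They hold no read counts, so the number of reads behind a peak is unknown and no counting interval is given. The paper does list a sequencing depth per replicate, which for CGE, LGE and CTX is not split by sample. The deposited score was not used.

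Peaks were compared with Python 3.11.15, pandas 2.3.3 and pysam 0.24.0, counting coordinates from 1. Interval functions were tested on simulated data. Gene models came from GENCODE M21 and sequence from the RefSeq copy of GRCm38. Exons are those of protein-coding transcripts. Clusters were MGE-only peaks less than 20 kb apart. The peaks on the mitochondrial genome were left out.

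The members, the 18 gene lists and the tests were chosen with earlier results of these data known. Named genes were those with at least 50% of the promoter covered, the 10 with the most MGE-only peaks, those at the 15 widest, 5 strongest and 5 farthest peaks, up to 4 per list by covered bases, and *Nkx2-1*, *Lhx6*, *Lhx8* and *Mbip*. Other genes, among them *Gm973*, *Rsf1*, *Foxp1*, *Jarid2*, *Pdzrn3*, *Hapln1*, *Neil2*, *Cdon*, *Hhip* and *Hhat*, were named after their values were seen. Alternatives were a stricter q-value, joined peaks, lists of equal length or bases, a 1 kb margin, autosomes alone, other promoter windows and gene bodies alone.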

Additional observations from a re-analysis of the deposited data

How the results depend on the processing

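No paired analysis was possible because the samples of each region were merged before peak calling, and no replicate could be left out. MGE-only peaks, 2026 in the deposited lists, numbered 535 with a q-value under 0.001 in all 4 lists. They numbered 248 with that limit in the MGE list alone and 3592 with lists of equal covered bases. Of the 2026, 248 were among the 535 and all were among the 3592. The rest of the 535 and of the 3592 were MGE peaks that overlapped another list as deposited. The share at promoters was 10.7% with the limit in all lists, 6.05% with the limit in MGE alone and 12.3% with equal bases. It was 10.7% with lists of equal length, 13.5% with 2 kb either side of the start and 15.2% with the start of any transcript. Peaks of 2 kb or more, 89 in the deposited lists, numbered 31 with the limit in MGE alone, 137 with peaks less than 3 kb apart joined and 218 with equal bases. Genes with several MGE-only peaks, 150 in the deposited lists, numbered 31, 8 and 275 under the stricter limit in all lists, the limit in MGE alone and equal bases. The median gap to other lists, 18553.5 bases in the deposited lists, was 38027 and 22002 with the stricter limit in all lists and in MGE alone, 21739.5 with joined peaks, 22260 with equal length, 26177.5 with equal bases and 20725 with the 1 kb margin. The other 17 of 38 values stayed within 1.5 times the count or within the 95% interval of the share or median. These intervals treat the peaks of the merged list as independent and hold no replicate error. For the genes *Gli2*, *Boc*, *Sel1l3*, *Auts2*, *Col25a1*, *Adamtsl1*, *Tle1* and *Ebf1* and the Hedgehog list, 53 of 72 values stayed within 1.5 times the count. Some of these were fixed in advance, because the MGE-only peaks counted lie on autosomes and leaving out X could not change them. Lists of equal length or bases could only keep or raise these counts. Of the 2026 peaks, 206 (10.2%) were MGE-only under the stricter limits, joined peaks, lists of equal length or bases and the 1 kb margin alike, among them 6 in *Sel1l3* and 3 in *Gli2*. Lists of equal length or bases kept all 2026 by construction, because MGE, the smallest list, was not cut. The limit in all lists kept the same 248 as the limit in MGE alone, so these settings are not separate checks. With a q-value under 0.001 in all lists, *Auts2*, *Col25a1* and the body of *Boc* kept no MGE-only peak, and 2 of the Hedgehog genes did. The cause was not tested beyond the construction of each setting.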

Other observations

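Genes of neuronal function were counted beside the 4.31% of all genes that held an MGE-only peak. Among 77 axon guidance genes, 11 did (14.3%), and *Ephb1*, an ephrin receptor gene, held 3 and *Efna5*, an ephrin gene, held 2. The coverage of *Ephb1* was nevertheless lower in MGE (1.66%) than in CGE (5.06%), LGE (4.87%) and CTX (4.75%). CGE-only, LGE-only and CTX-only peaks occurred in 17, 11 and 19 of these 77 genes. Of 157 ion channel genes, 16 (10.2%) held MGE-only peaks, while 19 held CGE-only, 17 LGE-only and 22 CTX-only peaks, and *Hcn4*, a pacemaker channel gene, was covered over 17.4% in MGE against 8.78% to 13.4% in the other lists. The share was 5 of 103 for neurotransmitter receptors (4.85%, near the share of all genes), where 8 held CGE-only, 8 LGE-only and 18 CTX-only peaks. For cell adhesion genes it was 9 of 124 (7.26%), with CGE-only peaks in 10, LGE-only in 8 and CTX-only in 14. For collagens and matrix genes it was 11 of 81 (13.6%), against 12, 4 and 10 of the same 81 with CGE-only, LGE-only and CTX-only peaks. Of 1093 olfactory receptor genes, 2 (0.183%) did, *Olfr71* with 1 and *Olfr960* with 2, and 6 of the 1093 had any MGE peak.

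Short sequence motifs were counted on both strands in the central 200 bases of each peak. TAATTA, a homeodomain core, occurred in 3.31% of MGE-only and 2.96% of other MGE peaks. CACTTGA, bound by Nkx2 factors, occurred in 2.07% and 1.69%, and GACCACCCA, the Gli consensus, in 0.247% and 0.299%. In the same order of motifs the shares were 3.77%, 2.89% and 0.283% among CGE-only peaks, 2.32%, 1.93% and 0.129% among LGE-only peaks and 4.38%, 2.12% and 0.118% among CTX-only peaks. A match describes the letters in the window and not binding.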
